A study of Mus musculus with 8 samples.

Results

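The 33 genes described here encode the subunits of Mediator. They are the protein-coding genes of the GENCODE M21 annotation whose symbol is Med followed by a number, with or without a final l, together with Ccnc, Cdk8 and Cdk19, and were found by Ensembl identifier among 141239 features counted in each library. Transcripts were counted by bulk RNA sequencing in hearts of Lmna knockout mice (Lmna-/-) aged 2 weeks, of mixed strain. All 8 libraries share the knockout of Lmna, which encodes the A-type lamins of the nuclear envelope. In 3 of them (replicates 6, 7 and 8, called untreated) the labels name no vector, and in 5 (replicates 1 to 5, called AAV9-LMNA) wild-type LMNA was put back with an adeno-associated virus of serotype 9, a vector that reaches heart muscle. The sources used here do not give the promoter, dose or route of the vector, or the sex of the mice. No wild-type heart and no control vector were analysed here, so the effects of LMNA and of the vector cannot be told apart. The RNA is of bulk tissue, so fewer cells of a type and less RNA per cell cannot be told apart either.

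Mediator is a large complex that carries signals from DNA-bound activators to RNA polymerase II at promoters. Its head and middle modules contact the polymerase, its tail holds the main docking sites for activators, and Med14 is the scaffold that joins the modules. A separable kinase module, made of Cdk8 or Cdk19, cyclin C (Ccnc), Med12 or Med12l, and Med13 or Med13l, binds the core reversibly and blocks its contact with the polymerase while bound. In the mouse heart, Med13 is known as a regulator of energy metabolism and as a target of miR-208a, a microRNA made from an intron of the myosin gene Myh6, and a mutation of Med30 causes cardiomyopathy. Med27 to Med30 are placed in the head by some accounts and in the tail by others, and are given apart below as the head-tail junction.

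The libraries held 21439956 to 26492443 counts on features. Untreated libraries had 16.8 to 24.7% of their reads outside every feature and AAV9-LMNA libraries 12.1 to 12.8% (exact two-sided permutation test over 56 splits, p = 0.0179, the smallest these splits give; adjusted p = 0.0238 over 4 measures). The slope of log2 expression on log2 transcript length, over 11492 coding genes, was 0.077 to 0.171 in untreated and -0.102 to -0.061 in AAV9-LMNA libraries (exact permutation p = 0.0179, adjusted p = 0.0238). In log2 CPM across features, untreated replicate 7 had a mean Pearson r of 0.967 to the AAV9-LMNA libraries and of 0.953 to the other untreated ones. Lmna stood at 32.3 to 68.7 CPM (counts scaled to a common library size) in untreated and 227 to 747 CPM in AAV9-LMNA libraries; which part of the gene the knockout removes is not given, so these reads check the labels only in part. Heart muscle markers were abundant, with a summed level of 47369 to 72827 CPM in untreated and 58267 to 70489 CPM in AAV9-LMNA libraries, and 2 of the 8 rose in the main test (Myl2 and Myl3), neither of them after correction for length and GC content. Of 4 atrial markers tested 3 were lower, with a median log2 fold change of -6.39 over the 4 (-6.69 after that correction). The summed atrial level of 63.1 to 977 CPM in untreated libraries had its highest value in replicate 8, against 59.1 to 177 CPM in AAV9-LMNA libraries. Macrophage markers (0 of 6 called) summed to 106 to 364 CPM in untreated and 296 to 315 CPM in AAV9-LMNA libraries. Skeletal muscle markers (1 of 3 tested higher, Ckm) summed to 1388 to 1642 CPM in untreated and 2082 to 2800 CPM in AAV9-LMNA libraries, which did not overlap. Of the endothelial markers 1 of 5 (Tie1) was higher, and 0 of the fibroblast, smooth muscle and erythroid markers were called. Lymphocyte markers (1 of 3 tested higher) summed to 3.77 to 21.7 CPM in untreated and 16.8 to 19.0 CPM in AAV9-LMNA libraries. After the length and GC correction 0 endothelial, 0 lymphocyte and 0 skeletal muscle markers were called higher. The main test called 18.4% of coding genes higher and 6.07% lower, and the fit with the length and GC correction 1.95% and 5.90%. The part of these differences in the results below was not tested.

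Mediator genes changed in both directions. Of the 33 genes 32 passed the filter on low counts, each with at least 45 counts in every library. Of these 32, 4 rose (Med8, Med20, Med22 and Med30), 4 fell (Med13, Med13l, Med14 and Med15) and 24 were not called (edgeR's quasi-likelihood test; a call means a Benjamini-Hochberg adjusted value under 0.05 over 26717 features). That is 12.5% in each direction. The same test called 10.6% of all features and 18.4% of coding genes higher, and 15% of all features and 6.07% of coding genes lower. The median log2 fold change (AAV9-LMNA over untreated) was 0.21 over the 32 members and also 0.21 over the 13785 coding genes tested. Without untreated replicates 6 and 8 these medians were 0.015 and 0.15. Of the 4 that rose 3 belong to the head and 1 to the head-tail junction, and of the 4 that fell 2 belong to the kinase module, 1 is the scaffold and 1 is in the tail.

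With RLE size factors in place of TMM 5 members rose and 4 fell. The deposited tables also count features of NONCODE, a catalogue of noncoding transcripts. These held 2.89 to 4.11% of the counts on features in untreated and 2.07 to 2.27% in AAV9-LMNA libraries (exact permutation p = 0.0179, adjusted p = 0.0238). With the Ensembl features scaled and tested without those of NONCODE, the median of the same features shifted by -0.19. In that fit 1 member rose (Med20) and 5 fell (Cdk8, Med13, Med13l, Med14 and Med15), where 4.33% of all features and 4.49% of coding genes were called higher and 8.57% and 8.73% lower. Each library was then corrected for transcript length and GC content as well, and the 1 that rose and the 5 that fell were these 6 genes. There 1.84% of all features and 1.95% of coding genes were called higher, and 6.15% and 5.90% lower. The median log2 fold change of coding genes was 0.020 with Ensembl features alone and -0.012 after the length and GC correction. With replicate 7 as the one untreated library, the spread came from the 5 AAV9-LMNA libraries alone, and the lone library is assumed to vary as they do. On that assumption 3 members were called higher (Med8, Med20 and Med22) and 2 lower (Med13l and Med14), where 3.81% of all features and 7.42% of coding genes were called higher and 3.36% and 3.85% lower. Med13l, Med14 and Med20 were called in the same direction in each of the 15 other fits that were run, of which this is 1.

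**Figure D1:**
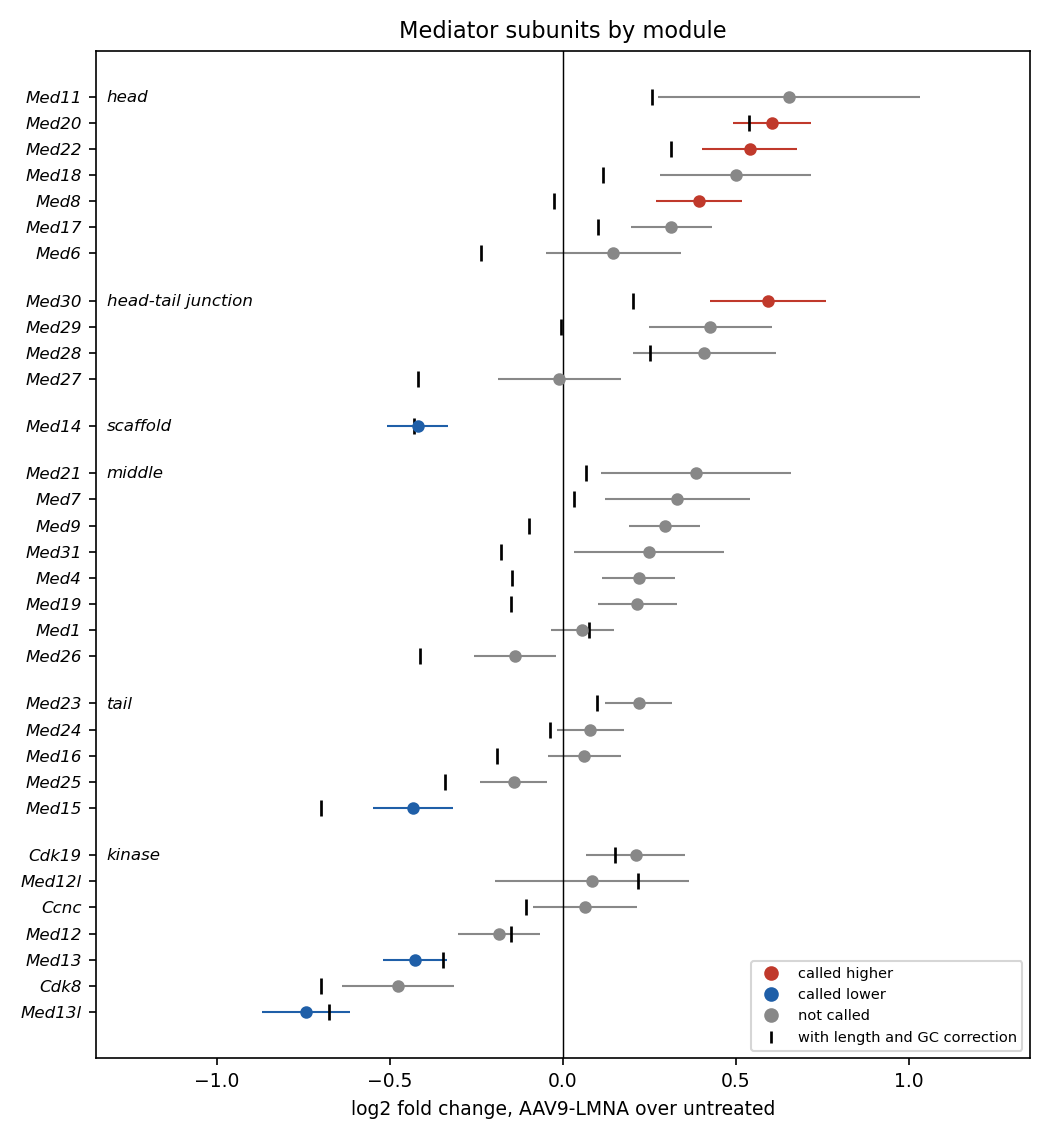
Log2 fold change, AAV9-LMNA over untreated, of the 32 tested Mediator genes by module (points, main edgeR test; bars, standard error; colours, call) and after correction for transcript length and GC content (black ticks). All 7 head genes lie to the right of 0 in the main test and 4 of the 7 kinase module genes to the left, and the ticks of Med13l, Med14, Med13 and Med20 stay near their points.

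The libraries were also compared one by one. The 8 members whose lowest AAV9-LMNA value was above the highest untreated value were Med4, Med8, Med9, Med19, Med20, Med22, Med23 and Med30. The 5 whose AAV9-LMNA values all lay below were Cdk8, Med13, Med13l, Med14 and Med15. Over all features tested 13.8% did not overlap with AAV9-LMNA above and 16% with AAV9-LMNA below, and over coding genes 23.1% and 6.61%. The remaining 19 tested members overlapped. Untreated replicate 6 was the lowest of the 8 libraries for Med6, Med11, Med18, Med21, Med28, Med29, Med30, Med31, Ccnc, Cdk19 and Med12l, and the highest for Med12, Med13, Med13l, Med14, Med15 and Med25 among others.

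**Figure D2:**
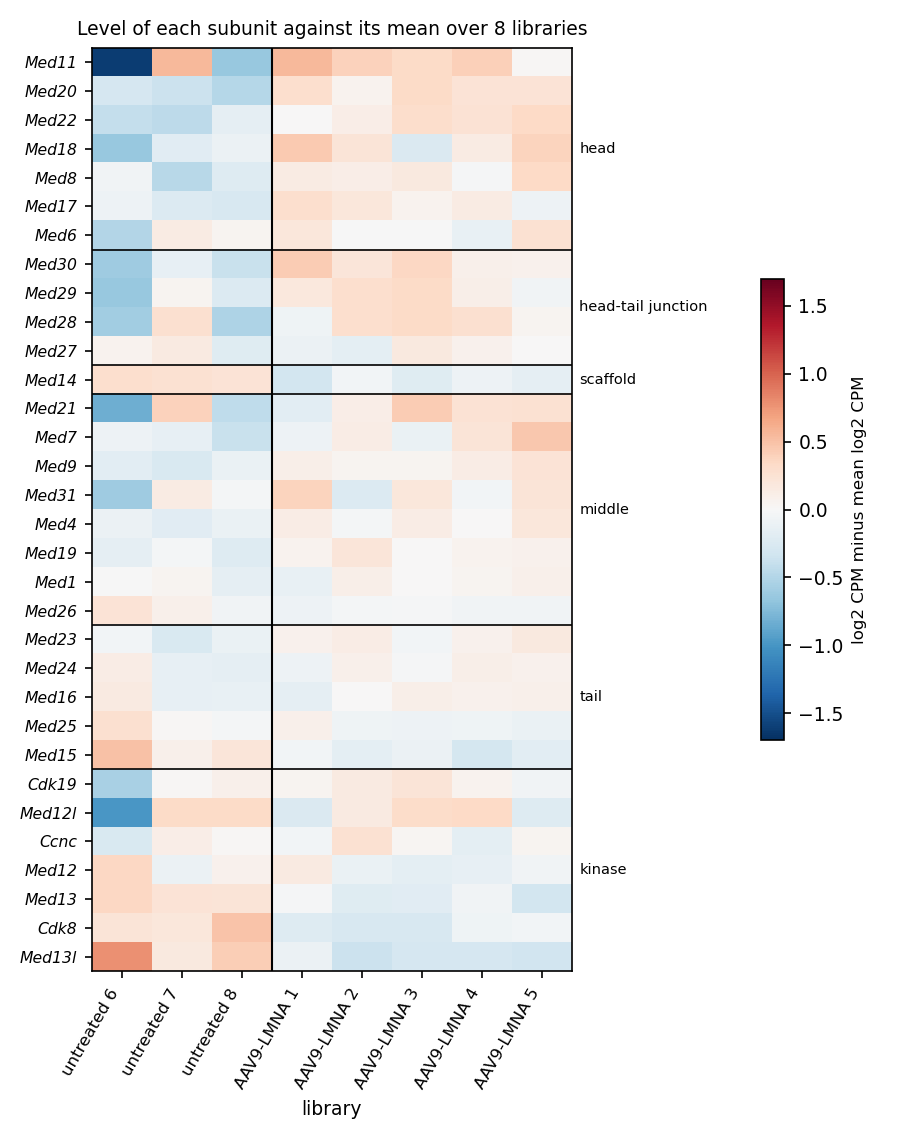
Level of each tested Mediator gene in each library, as log2 CPM minus its mean over the 8 libraries (colour), with rows grouped by module and a line between the untreated and the AAV9-LMNA libraries. Untreated replicate 6 holds the lowest value of the plot, -1.61 for Med11, and untreated replicate 7 holds a value of 0.55 for the same gene, level with AAV9-LMNA replicate 1.

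The head module, which holds the polymerase near the promoter, gave 3 rises, 0 falls and 4 genes not called among its 7 genes, with a median log2 fold change of 0.50, beside 0.21 for coding genes. The median was 0.31 with Ensembl features alone and 0.12 after the length and GC correction, beside 0.020 and -0.012 for coding genes. Med20 and Med18 form a pair at the edge of the head. Med20 held 14.9, 14.1 and 13.03 CPM in the untreated libraries (replicates 6, 7 and 8, the order used throughout), and 22.1, 19.0, 22.7, 21.4 and 21.3 CPM in AAV9-LMNA replicates 1 to 5. Every AAV9-LMNA library was above every untreated one, with little spread inside either group. It rose by 0.60 on the log2 scale (standard error 0.11, edgeR adjusted p = 0.00547), or 52.1%, and by 0.54 with length and GC content corrected for (edgeR adjusted p = 0.0171). Of its exon bases 28.4% are shared with other genes, Gm20517 on the same strand among them, which held 13 to 45 counts a library. Med18, its partner, was not called, at 3.57 ± 0.688 CPM (SD, n = 3) against 5.05 ± 0.879 CPM (SD, n = 5), a log2 fold change of 0.50.

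Med22 and Med11 form a second pair in the head. Med22 held 8.82, 8.57 and 10.5 CPM in the untreated libraries and 11.8, 12.7, 14.4, 13.9 and 14.8 CPM in the AAV9-LMNA libraries. The groups did not overlap, though untreated replicate 8 came close to AAV9-LMNA replicate 1. Med22 rose by 0.54 (standard error 0.14, edgeR adjusted p = 0.0176), but corrected for length and GC content it was at 0.31 and lost the call (edgeR adjusted p = 0.142). Med11 had the largest SD for its mean in untreated hearts of the 32 tested members, with 1.85, 8.27 and 3.63 CPM in the untreated and 5.75 to 8.27 CPM in the AAV9-LMNA libraries. Its untreated replicate 7 was level with the highest AAV9-LMNA library, and its log2 fold change of 0.65 did not pass (edgeR adjusted p = 0.216). That value was 1.41 and called without untreated replicate 7 (edgeR adjusted p = 0.00331), 0.28 without untreated replicate 6, and 0.69 and called with no filter (edgeR adjusted p = 0.0205).

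Med8 is another head subunit. It held 23.3, 17.4 and 20.8 CPM in the untreated and 26.8, 26.3, 27.2, 23.96 and 30.5 CPM in the AAV9-LMNA libraries. AAV9-LMNA replicate 4 stood just above untreated replicate 6. Med8 rose by 0.39 in the main test (standard error 0.13, edgeR adjusted p = 0.0398), but its log2 fold change was -0.026 with length and GC content corrected for (edgeR adjusted p = 0.934). Leaving out 1 library kept that call in 1 of 8 cases. Med17, the largest head subunit, and Med6 were not called, with log2 fold changes of 0.31 and 0.15.

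At the head-tail junction 1 gene rose, 0 fell and 3 were not called, and the median was 0.42 (0.23 with Ensembl features alone and 0.099 after the length and GC correction). Med30 held 5.05, 6.99 and 5.90 CPM in the untreated and 10.3, 8.83, 9.77, 8.16 and 8.06 CPM in the AAV9-LMNA libraries. Its groups did not overlap. It rose by 0.59 (standard error 0.17, edgeR adjusted p = 0.0262). Corrected for length and GC content it was at 0.20 and lost the call (edgeR adjusted p = 0.379), and in the main test the call was kept without 1 library in 3 of 8 cases. Med29 and Med28 had log2 fold changes of 0.43 and 0.41 and Med27 of -0.011, with none called. Without untreated replicate 7, Med28 was at 0.76 (edgeR adjusted p = 0.00577) and Med29 at 0.62 (edgeR adjusted p = 0.0208), both called, while against that library alone Med28 was at -0.074. Med28 had 12.4 CPM in untreated replicate 7, within the AAV9-LMNA range of 9.81 to 12.9 CPM, and 6.81 and 7.13 CPM in replicates 6 and 8.

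Med14, the scaffold on which the head, middle and tail assemble, had the untreated values with the smallest SD for their mean of the 32 tested members. They were 63.7, 62.6 and 61.4 CPM, against 42.1, 50.3, 45.3, 49.1 and 46.8 CPM in the AAV9-LMNA libraries. The highest AAV9-LMNA library was well below the lowest untreated one. Med14 fell by 0.42 on the log2 scale (standard error 0.089, edgeR adjusted p = 0.00935), which is 25.3% lower. With length and GC content corrected for, it was at -0.43 (edgeR adjusted p = 0.0182), and against untreated replicate 7 alone at -0.41. The gene lies on chromosome X (GRCm38, 12675369 to 12762073, minus strand). Its exons share no bases with another gene of GENCODE M21, and overlap with NONCODE features was not checked.

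In the middle module, which with the head contacts the polymerase, no gene was called (0 of 8 tested). Its median of 0.23 was about that of coding genes. It was 0.043 with Ensembl features alone and -0.12 after the length and GC correction, beside 0.020 and -0.012 for coding genes. Med1, the subunit that nuclear receptors bind, held 78.6, 81.8 and 71.1 CPM in the untreated and 72.3, 84.4, 79.0, 81.4 and 84.1 CPM in the AAV9-LMNA libraries. The groups covered nearly the same range. Its log2 fold change of 0.056 (standard error 0.092) was not called (edgeR adjusted p = 0.667). Its sign turned with Ensembl features alone (-0.14), where the median of coding genes moved from 0.21 to 0.020. Med9 had the lowest p of the module, with 18.6 ± 0.934 CPM (SD, n = 3) against 22.8 ± 1.22 CPM (SD, n = 5), a log2 fold change of 0.29 (edgeR adjusted p = 0.054). The log2 fold changes of Med4, Med7, Med19, Med21 and Med31 lay between 0.22 and 0.39, and that of Med26, which recruits elongation factors, was -0.14; under the length and GC correction those of Med4, Med9, Med19 and Med31 were below 0. Med21 was at 0.82 and called without untreated replicate 7 (edgeR adjusted p = 0.0243). Med10 is listed at 0 in all 8 libraries and was not tested. Of its exon bases 92.8% are shared with the noncoding gene Gm26819 on the opposite strand, which is listed at 0 as well. Reads that overlap more than 1 feature were set aside in these tables as ambiguous, so the level of Med10 is not known from them.

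In the tail 1 gene fell, 0 rose and the other 4 were not called. Its median was 0.062, with -0.15 for Ensembl features alone and -0.19 after the length and GC correction. The medians of coding genes in these fits were 0.21, 0.020 and -0.012. Med15, the subunit bound by the sterol regulator SREBP and by SMAD factors, held 37.1, 27.9 and 30.3 CPM in the untreated and 25.5, 23.3, 24.4, 21.3 and 23.2 CPM in the AAV9-LMNA libraries. The groups were close, with untreated replicate 7 near AAV9-LMNA replicate 1. It fell by 0.43 (standard error 0.12, edgeR adjusted p = 0.0216), and by 0.70 with length and GC content corrected for (edgeR adjusted p = 0.0127). The call was lost without untreated replicate 6 and without AAV9-LMNA replicate 2 or 4, and against untreated replicate 7 alone the log2 fold change was -0.23. Med25, a target of the activator ATF6, had a log2 fold change of -0.14, and Med23, a target of ELK1, of 0.22. Med24 and Med16 were at 0.079 and 0.062, and below 0 with Ensembl features alone. None of these 4 was called.

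The kinase module contained the largest fall among the Mediator genes in the main test, in Med13l (after the length and GC correction Med15 and Cdk8 stood slightly lower). Of its 7 genes 2 fell, 0 rose and the other 5 were not called. Its median was -0.19, with -0.39 and -0.15 under the same alternatives (coding genes 0.21, 0.020 and -0.012). Med13 and Med13l are alternative forms of the subunit that ties the kinase to the core. Med13l held 184, 121 and 143 CPM in the untreated and 101, 83.2, 88.2, 88.1 and 86.1 CPM in the AAV9-LMNA libraries. Untreated replicate 6 was far above the rest, and all 3 untreated values were above every AAV9-LMNA value. It fell by 0.74 on the log2 scale (standard error 0.13, edgeR adjusted p = 0.00428), which is 40.3% lower. It fell by 0.68 with length and GC content corrected for (edgeR adjusted p = 0.0245), and its log2 fold change against untreated replicate 7 alone was -0.42.

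Med13 held 174, 160 and 158 CPM in the untreated and 134, 118, 119, 130 and 109 CPM in the AAV9-LMNA libraries. The groups were separate, with the untreated libraries close together. Med13 fell by 0.43 (standard error 0.093, edgeR adjusted p = 0.00984), or 25.7%, and fell by 0.35 with length and GC content corrected for (edgeR adjusted p = 0.0347). Against untreated replicate 7 alone the log2 fold change was -0.38. Per kilobase of exon Med13 was the most abundant member in untreated hearts, at 15.1 ± 0.796 RPKM (CPM per kilobase of exon, SD, n = 3). In AAV9-LMNA hearts it was at 11.2 ± 0.917 RPKM (SD, n = 5). That rank depends on the length used, here 10840 exon bases for Med13 and 7629 for Med25. Their longest transcripts have 10546 and 3693 bases, and by that length Med25 stands above Med13.

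Of the 33 members 1, Med13, held in the 3' untranslated region of its longest coding transcript a match to the seed shared by miR-208a and miR-208b. The seed is bases 2 to 8 of the microRNA, UAAGACG, and its match is CGTCTTA. Such a match occurred in 1.52% of the 20948 coding genes with an annotated region. The match begins at base 547 of the 3953 bases of that region, and the 22 bases printed here end 1 base past it (GRCm38, chr11:86270432-86270453, minus strand). Both microRNAs, from RefSeq on GRCm38.p6, and the site, from GENCODE M21, are shown because Med13 is the member whose regulation by a heart microRNA is known; capitals mark the seed and its match.
miR-208a-3p: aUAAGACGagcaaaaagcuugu
miR-208b-3p: aUAAGACGaacaaaagguuugu
Med13 site: aaaatatatgtaatCGTCTTAa

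The seed of miR-499, another heart microRNA, was searched as well and had its match, AGTCTTA, in Ccnc, Med7 and Med28 and in 9.34% of all such regions. The microRNAs themselves were not measured in these libraries. Myh6, whose intron holds miR-208a, stood at 17052 to 33892 CPM in untreated and 21297 to 30357 CPM in AAV9-LMNA libraries. Its log2 fold change was -0.086 and was not called (edgeR adjusted p = 0.766).

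The kinase genes themselves gave unequal values. Cdk8 held 6.28, 6.14 and 7.54 CPM in the untreated and 4.63, 4.47, 4.46, 5.11 and 5.21 CPM in the AAV9-LMNA libraries. All AAV9-LMNA values were lower, but on 94 to 166 counts a library the difference fell just short in the main test (log2 fold change -0.48, standard error 0.16, edgeR adjusted p = 0.05003). It was called in 5 of 15 other fits, among them Ensembl features alone (-0.67, edgeR adjusted p = 0.0169) and the length and GC correction (-0.70, edgeR adjusted p = 0.0198), and in 1 of the 8 that left out 1 library. It was not called with RLE size factors (edgeR adjusted p = 0.0597), with no filter (edgeR adjusted p = 0.216) or without untreated replicate 8 (-0.37, edgeR adjusted p = 0.169). Cdk19, its paralogue, held 19.5, 29.0 and 30.4 CPM in the untreated and 29.6, 31.9, 33.2, 29.9 and 27.5 CPM in the AAV9-LMNA libraries. Apart from untreated replicate 6 the groups shared one range, and the log2 fold change of 0.21 was not called (edgeR adjusted p = 0.288).

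Ccnc, the cyclin that both kinases need, held 8.04, 10.4 and 9.76 CPM in the untreated and 9.30, 11.4, 9.82, 8.55 and 9.92 CPM in the AAV9-LMNA libraries. The groups overlapped (log2 fold change 0.064, edgeR adjusted p = 0.769; below 0 with Ensembl features alone). Med12, which activates the kinase, held 79.3, 58.0 and 65.0 CPM in the untreated and 68.7, 57.3, 55.3, 55.95 and 59.3 CPM in the AAV9-LMNA libraries, again with overlap (-0.19, edgeR adjusted p = 0.254). Med12l, its paralogue, held 10.8, 26.8 and 26.9 CPM in the untreated and 17.99, 23.9, 26.6, 27.0 and 18.4 CPM in the AAV9-LMNA libraries. Untreated replicate 6 was the lowest there. AAV9-LMNA replicates 1, 2, 3 and 5 lay below the other untreated libraries, replicates 1 and 5 the furthest. The log2 fold change was 0.085 (edgeR adjusted p = 0.837), and -0.086 with Ensembl features alone. Of the exon bases of Med12l 17.3% are shared with other genes.

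**Figure D3:**
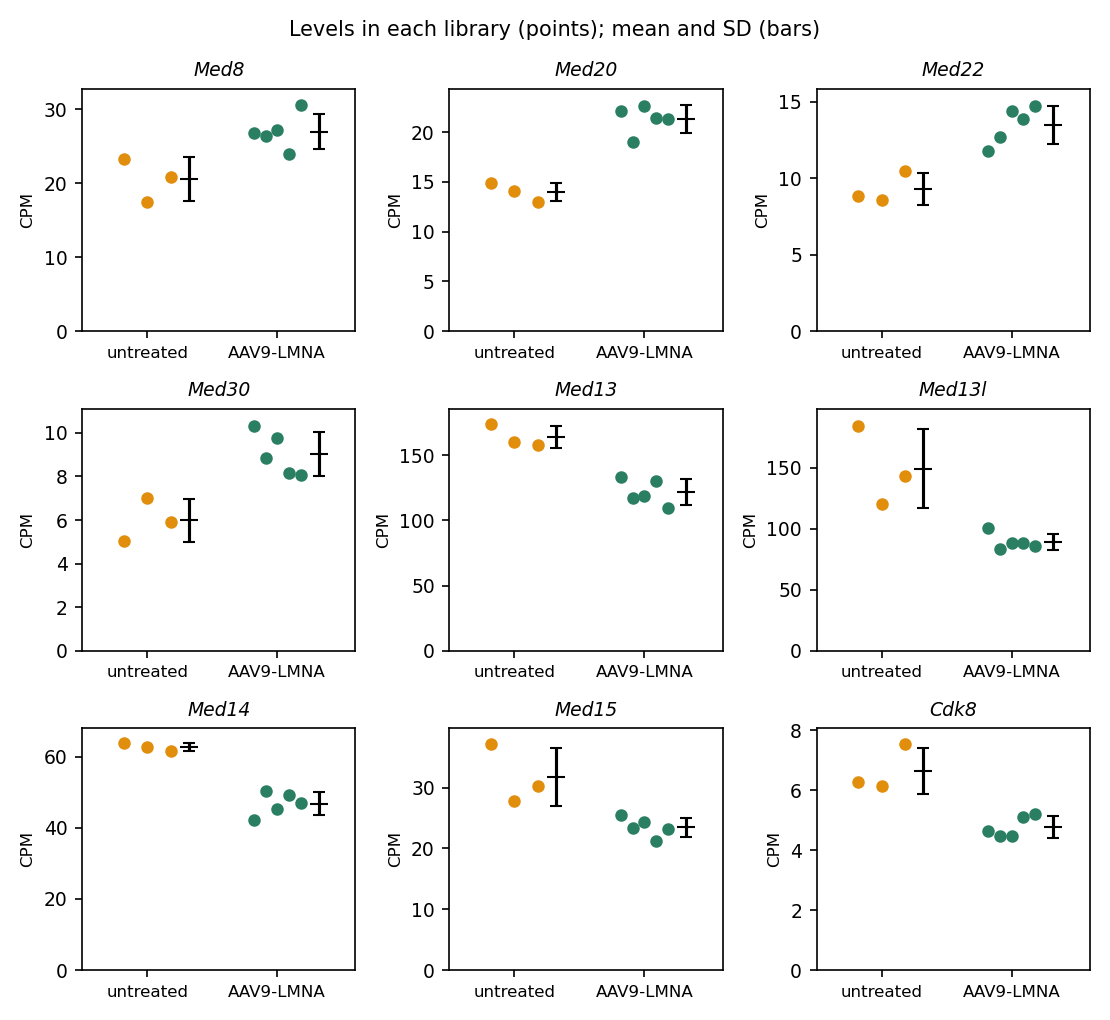
CPM in each library (points) of the 8 called members and Cdk8, with the mean and SD of each group (bars), untreated against AAV9-LMNA. In all 9 genes no point of one group lies within the range of the other.

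Ratios of paralogues within a library do not depend on scaling. Per kilobase of exon, Cdk8 stood at 0.192, 0.126 and 0.148 of Cdk19 in untreated replicates 6, 7 and 8, and at 0.0928, 0.0834, 0.0798, 0.102 and 0.113 in the AAV9-LMNA libraries. Cdk19 was thus the more abundant form per length in every library, and the groups did not overlap. The mean log2 ratio was lower by 0.71 in AAV9-LMNA hearts (exact two-sided permutation p = 0.0179, the smallest that 56 splits give; adjusted p = 0.0536 over 3 ratios). Med13 exceeded Med13l per kilobase, 1.34, 1.89 and 1.57 times in the untreated and 1.89, 2.01, 1.91, 2.10 and 1.80 times in the AAV9-LMNA libraries. Here untreated replicate 7 lay among the AAV9-LMNA values. The log2 ratio differed by 0.29 (exact permutation p = 0.0357, adjusted p = 0.0536). Med12 exceeded Med12l 12.1, 3.59 and 4.00 times in the untreated and 3.44 to 6.33 times in the AAV9-LMNA libraries, and these overlapped (exact permutation p = 0.464, adjusted p = 0.464). Without untreated replicates 6 and 8 the difference was -0.43 for Cdk8 to Cdk19 and 0.042 for Med13 to Med13l. Counted per kilobase of the longest transcript in place of all exons, the mean ratio of Cdk8 to Cdk19 was 0.388 ± 0.084 (SD, n = 3) and 0.236 ± 0.0336 (SD, n = 5), and that of Med13 to Med13l 0.99 ± 0.169 and 1.20 ± 0.0713, so which of the last 2 is more abundant depends on the length used.

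**Figure D4:**
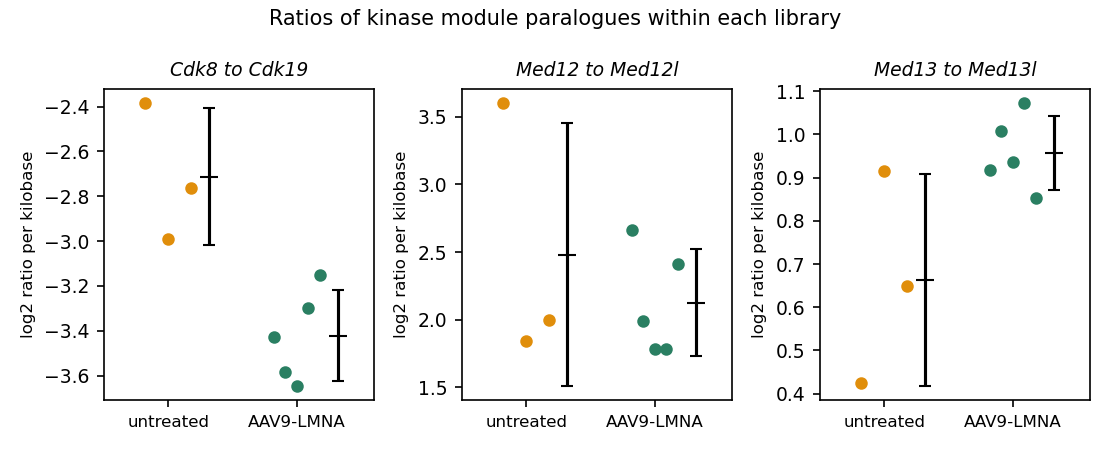
Log2 ratio, per kilobase of exon, of the 3 pairs of kinase module paralogues in each library (points), with the mean and SD of each group (bars). The Cdk8 to Cdk19 ratio is separate between groups, the Med13 to Med13l ratio overlaps through untreated replicate 7, and the Med12 to Med12l ratio overlaps.

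The summed level per length can be split by module. The kinase module made up 25.9% ± 1.64 (SD, n = 3) of the summed RPKM of the 33 genes without the vector and 19.8% ± 0.791 (SD, n = 5) with the vector, and the head 15.5% ± 1.63 and 19.9% ± 0.546. The middle module made up 23.9% ± 0.453 and 25.5% ± 0.943, and the tail 21.7% ± 2.24 and 20.5% ± 0.522. The kinase shares of 24.05 to 27.1% and 18.6 to 20.8% did not overlap, nor did the head shares of 13.8 to 17.0% and 19.4 to 20.7%. The scaffold made up 4.31 to 4.42% and 2.74 to 3.33%, which did not overlap, and the head-tail junction 7.05 to 10.4% and 9.99 to 12.3%, which did. RPKM was not corrected for the length trend given above. Med10, of the middle module, entered the sum as 0 though its level is not known, so every share leaves out what it may hold. Mean RPKM went from 15.1 to 11.2 for Med13 and from 9.69 to 5.78 for Med13l. After the length and GC correction the median log2 fold change was 0.12 for the head and -0.15 for the kinase module. These shares sum the same values as the tests above and are given as a description.

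Transcript length moved with the direction among the members. Length here and in the correction is that of the longest annotated transcript, coding or not, which has 5680 bases for Med20. Other choices of length were not tested in the correction. The log2 fold change and the length of the longest transcript had a Spearman correlation of -0.52 over the 32 members, which share the same libraries, and of -0.37 over 13785 coding genes. Of 9 members of at least 5000 bases 1 rose (Med20) and 3 fell (Med13, Med13l and Med14), where 5.89% of coding genes of that length rose and 15.2% fell. Of the 23 shorter members 3 rose and 1 fell, where 22.3% of shorter coding genes rose and 3.23% fell. Once length and GC content were corrected for, the correlation was -0.045 over the members and -0.011 over coding genes. Values near 0 were set in advance, since the correction removes the trend with this same length. In that fit the longer members still gave 1 rise and 3 falls, and the shorter ones 0 rises and 2 falls (Cdk8 and Med15). Of all longer coding genes 2.72% rose and 9.98% fell there, and of the shorter ones 1.71% and 4.63%.

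**Figure D5:**
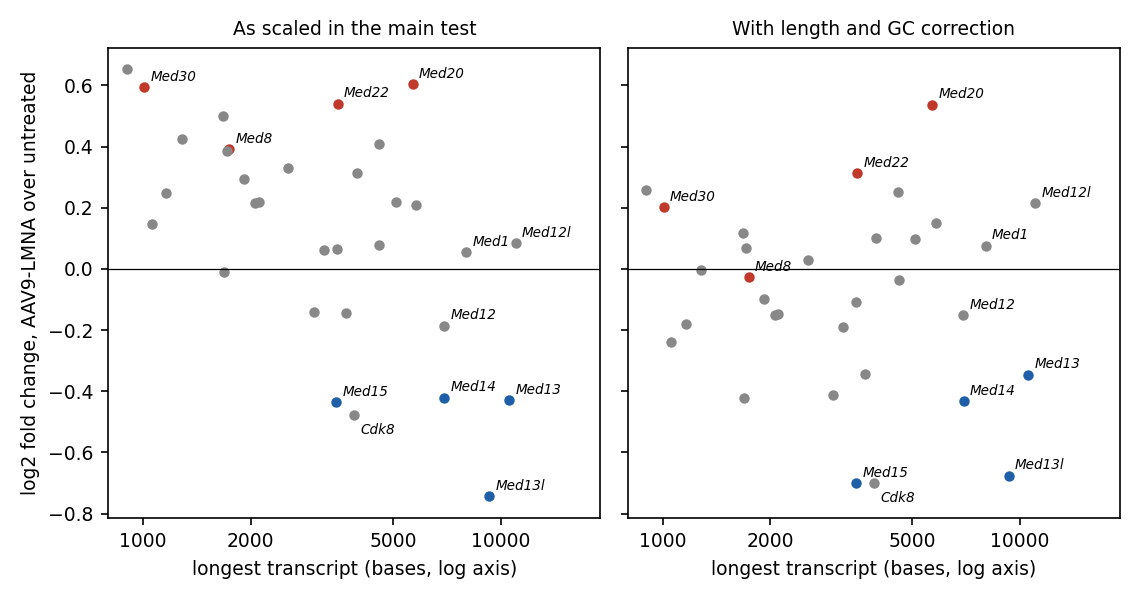
Log2 fold change against the length of the longest transcript for the 32 tested members, in the main test (left) and after correction for length and GC content (right), with colours for the call of the main test (red higher, blue lower, grey not called). The correction removes the downward trend of the left panel by design. Med13, Med13l and Med14 stay below 0 on the right and Med20 stays above.

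Promoters of the 3 members called in all fits are printed for reference: 300 bases each, 250 before and 50 after the RefSeq start (GRCm38.p6), read 5' to 3' on the gene's strand. Med13l lies at chr5:118560469-118560768 (plus strand), Med14 at chrX:12761924-12762223 (minus strand) and Med20 at chr17:47611335-47611634 (plus strand). Capitals mark a match to 1 of 7 motifs searched on both strands. These were CCGGAAG for ETS factors, the palindrome of NRF1, AAGATGGC for YY1, TGACGTCA for CREB, GGGGCGGGG for SP factors, TATAAA and the nuclear receptor half-site AGGTCA.
Med13l: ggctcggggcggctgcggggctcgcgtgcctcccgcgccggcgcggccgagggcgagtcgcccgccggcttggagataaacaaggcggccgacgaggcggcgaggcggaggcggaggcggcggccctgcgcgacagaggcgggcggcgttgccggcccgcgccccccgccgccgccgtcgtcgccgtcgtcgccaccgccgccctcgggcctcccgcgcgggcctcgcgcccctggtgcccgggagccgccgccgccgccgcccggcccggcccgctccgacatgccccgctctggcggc
Med14: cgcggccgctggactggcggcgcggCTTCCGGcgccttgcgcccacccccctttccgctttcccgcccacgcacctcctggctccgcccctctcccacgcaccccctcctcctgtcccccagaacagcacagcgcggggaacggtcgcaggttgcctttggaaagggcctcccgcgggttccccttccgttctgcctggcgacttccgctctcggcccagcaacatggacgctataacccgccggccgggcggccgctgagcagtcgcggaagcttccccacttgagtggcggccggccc
Med20: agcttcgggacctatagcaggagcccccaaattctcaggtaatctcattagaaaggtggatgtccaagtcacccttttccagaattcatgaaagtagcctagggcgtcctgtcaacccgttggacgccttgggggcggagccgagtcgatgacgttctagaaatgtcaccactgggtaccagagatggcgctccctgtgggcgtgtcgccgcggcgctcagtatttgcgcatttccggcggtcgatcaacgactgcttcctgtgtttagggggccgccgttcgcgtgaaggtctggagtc

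The GC content of these promoters was 84.7% for Med13l, 72.3% for Med14 and 57.0% for Med20. Of these 3 Med14 held a match, to the ETS motif on the opposite strand, and the others held none. Of the 28 members with a RefSeq promoter entry, 8 held that motif (Med4, Med6, Med10, Med14, Med15, Med17, Med18 and Med19), in 9 of their 32 promoters, while 8.86% of all 32851 promoters did. Among these 8 are 2 genes that fell, 0 that rose and 1 that was not tested. Med8 and Med30, which rose, have no entry and could not be searched. NRF1 matches were found in 0 of the 32 member promoters (0.971% of all promoters), YY1 and CREB matches in 1 each (2.75% and 1.79%). SP and TATA matches were in 3 of the 32 each (11.4% and 13.6%). Nuclear receptor half-sites were in 8 of the 32, of 7 genes (16.3%). The entries of Cdk19, Med8, Med23, Med24 and Med30 are missing.

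Other genes of the transcription machinery were counted by list, to be read beside the 18.4% of coding genes called higher and 6.07% called lower, and their median of 0.21. With Ensembl features alone these shares were 4.49% and 8.73% (median 0.020). After the length and GC correction they were 1.95% and 5.90% (median -0.012). Of 12 subunits of RNA polymerase II 5 rose, 1 fell and 6 were not called (median 0.37). The 1 that fell was Polr2a, the catalytic subunit whose tail Mediator binds, from 75.3 ± 7.99 CPM (SD, n = 3) to 29.7 ± 2.44 CPM (SD, n = 5), a log2 fold change of -1.34 (edgeR adjusted p = 0.000109). It was at -1.31 with length and GC content corrected for. Polr2b, the subunit next in size, rose by 0.42 (edgeR adjusted p = 0.00847) and Polr2g by 0.65 (edgeR adjusted p = 0.0103), and neither was called after the correction. With Ensembl features alone 2 subunits rose and 1 fell. Of 30 general transcription factor genes tested 9 rose, 2 fell and 19 were not called (median 0.32). Gtf2h3 and Gtf2h4, subunits of TFIIH, rose by 0.66 and 0.87, and Taf10 of TFIID rose by 0.53. With Ensembl features alone 2 rose and 2 fell. After the correction 0 polymerase subunits and 0 of these factors rose, and 1 of each fell. Against untreated replicate 7 alone the log2 fold change was -1.15 for Polr2a, 0.31 for Polr2b and 0.44 for Polr2g. There it was 0.49 for Gtf2h3, 0.53 for Gtf2h4 and 0.37 for Taf10.

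Of 24 genes of pausing and elongation 5 rose, 3 fell and 16 were not called (median 0.20). Cdc73 of the PAF complex fell by 1.06, Aff1 of the super elongation complex fell by 0.70, and Nelfb of the pausing factor NELF rose by 0.51. With Ensembl features alone 1 rose and 4 fell, and after the correction 0 rose and 2 fell. Of 11 cohesin and loop genes, which join Mediator-bound enhancers to promoters, 1 rose, 2 fell and 8 were not called (median 0.013). Nipbl, the cohesin loader that binds Mediator, fell by 0.54, from 168 ± 5.32 CPM (SD, n = 3) to 116 ± 9.09 CPM (SD, n = 5; edgeR adjusted p = 0.00391), and by 0.49 after the correction (edgeR adjusted p = 0.00618). Pds5b fell by 0.67 and Smc1a rose by 0.47, and both stayed called after the correction (-0.67 and 0.32), Smc1a not with Ensembl features alone (edgeR adjusted p = 0.055). In all 0 of this list rose and 4 fell with Ensembl features alone, and 1 rose and 3 fell after the correction.

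Of 18 genes of activators known to bind Mediator 2 rose, 4 fell and 12 were not called (median -0.002). With Ensembl features alone, and again after the length and GC correction, 0 rose and 5 fell (medians -0.19 and -0.21, beside 0.020 and -0.012 for coding genes). Esrrg, a nuclear receptor of oxidative metabolism, fell by 0.88, from 56.4 ± 3.43 CPM (SD, n = 3) to 30.6 ± 2.01 CPM (SD, n = 5; edgeR adjusted p = 0.000587). Ppara, the receptor that drives fatty acid use, fell by 0.58, and Esrra, a relative of Esrrg, rose by 0.44. With length and GC content corrected for, Esrrg and Ppara were at -0.99 and -0.84 and stayed called, while Esrra was at 0.091 and did not (edgeR adjusted p = 0.592).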

How the data were processed

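The authors deposited 1 table of raw, unnormalized read counts for each library. Among the tools in the submitters' processing notes are limma, edgeR, HTSeq and TopHat2 (no versions given), and the builds are GRCm38 and mm10. Counting ignored strand, per the names of the deposited tables, so reads of overlapping and antisense genes cannot be told apart. Ambiguous reads made up 21.0, 24.9 and 24.5% in untreated replicates 6, 7 and 8 and 24.0 to 26.4% in AAV9-LMNA libraries. Exon overlaps were checked against GENCODE M21 only, and any reads set aside for a NONCODE overlap are missing from every fit. Summary lines were kept out of library sizes. Of 53465 Ensembl identifiers 53274 matched GENCODE M21 (GRCm38).

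Counts were filtered with filterByExpr, which left 26717 features, scaled by TMM and tested with robust quasi-likelihood fits in edgeR 4.0.16 (R 4.3.3) with 1 term for the group. Benjamini-Hochberg adjustment ran over all features tested, at 0.05. The standard errors given were derived from the test, as the absolute log2 fold change divided by the square root of its F statistic. CPM uses TMM library sizes, and RPKM the union of a gene's exons. Alternatives were RLE factors, DESeq2 1.42.0, limma-voom (limma 3.58.1), no filter, Ensembl features alone, a loess correction for length and GC content (span 0.5, as edgeR offsets), each library left out in turn, and both untreated replicates 6 and 8 left out. The scripts were tested on simulated counts.

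The members, modules and lists were chosen with earlier results of these data known. Values in every library are given for called members, the kinase module pairs, Ccnc, Med1 and Med14, and up to 3 called genes of smallest p are named from each other list; members named beyond these, Myh6 and the motifs and microRNA seeds were chosen after values were seen. Whether each library is a different animal is not stated, and the p-values therefore measure only the spread among these libraries, which may be technical.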

Additional observations from a re-analysis of the deposited data

Results flagged for a closer look

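Med25 stood at 76.2 CPM in AAV9-LMNA replicate 1, where the other 4 libraries of the group lay between 66.3 and 68.5 CPM, and the gap is wide for the range of the group. Without that library its log2 fold change was -0.18 in place of -0.14, and it was not called in either fit (edgeR adjusted p = 0.207 and 0.288). Med13l stood at 101 CPM in the same library, with the other 4 between 83.2 and 88.2 CPM. Without it the log2 fold change was -0.79 and stayed called (edgeR adjusted p = 0.00803). In all 35 sets of 5 values were examined in this way, and chance marks about 1 in 20.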

How the results depend on the processing

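Over 15 other fits, Med13l (log2 fold change -0.96 to -0.42), Med14 (-0.62 to -0.38) and Med20 (0.40 to 0.66) kept their calls in each, Med13 in 14, Med22 in 13, Med15 in 11, Med30 in 7 and Med8 in 6. The count of members called higher, 4 in the main test, was 1 with Ensembl features alone, 1 after the length and GC correction and 2 to 7 without 1 library. It was 7 without untreated replicate 7, and 2 without untreated replicate 8 or AAV9-LMNA replicate 1, 2 or 3. The count called lower, 4 as well, was 2 without untreated replicates 6 and 8 and 3 to 5 without 1 library. DESeq2 called 6 higher and 5 lower. The cause of these differences was not tested.

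The sign of a log2 fold change turned as follows, also for larger ones such as those of Med11 (0.65 in the main test), Med29 (0.43), Med28 (0.41), Med8 and Med21 (0.39 each) and Med9 (0.29); of these genes Med8 was called in the main test and none under the setting named. With Ensembl features alone it was -0.13 for Ccnc, -0.14 for Med1, -0.038 for Med6, -0.15 for Med16, -0.13 for Med24 and -0.086 for Med12l. After the length and GC correction it was -0.11 for Ccnc, -0.15 for Med4, -0.24 for Med6, -0.026 for Med8, -0.099 for Med9, -0.19 for Med16, -0.15 for Med19, -0.037 for Med24, -0.0047 for Med29 and -0.18 for Med31. Without untreated replicates 6 and 8 it was -0.066 for Ccnc, -0.016 for Med1, -0.059 for Med6, -0.19 for Med11, 0.044 for Med12, -0.19 for Med21, -0.074 for Med28, -0.014 for Med31 and -0.22 for Med12l. Med27 was 0.015 with RLE factors, 0.013 with DESeq2 and 0.030 with no filter. Without 1 library, Ccnc lay between -0.026 and 0.16, Med6 between -0.018 and 0.28, Med27 between -0.10 and 0.081 and Med12l between -0.23 and 0.29. The median of coding genes was 0.21 in the main test, 0.020 with Ensembl features alone and -0.012 after the length and GC correction.

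The difference in log2 ratio ran, without 1 library, from -0.85 to -0.55 for Cdk8 to Cdk19, from -0.68 to 0.20 for Med12 to Med12l and from 0.17 to 0.42 for Med13 to Med13l. Without AAV9-LMNA replicate 5 Cdk8 to Cdk19 and Med13 to Med13l passed (-0.78 and 0.32, adjusted exact permutation p = 0.0429 each). Without untreated replicates 6 and 8 Med12 to Med12l was 0.28, and 6 splits cannot reach 0.05. No paired analysis was possible because the groups share no replicate numbers. Counts summed over the 8 libraries were lowest for Med7 (605), Med21 (709) and Med18 (825) among tested members.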
